A study of Mus musculus with 2 samples.

Results

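SIRPα is an inhibitory receptor of macrophages, and CD47 on other cells is its ligand. When CD47 binds, tyrosine motifs (ITIMs) in the tail of SIRPα are phosphorylated and recruit the phosphatases SHP-1 and SHP-2, encoded by Ptpn6 and Ptpn11, which restrain engulfment; red pulp macrophages of the spleen, which clear aged red blood cells, are a standard setting for this "don't eat me" signal. The related receptors SIRPβ lack such motifs and signal through the activating adaptor DAP12, encoded by Tyrobp, while the adaptors SKAP2 and ADAP (gene Fyb) are found in complexes with SIRPα in macrophages and thrombospondin 1 (Thbs1) is a further ligand of CD47. These 10 genes were followed through every array probe whose accession belongs to them. They had 14 probes, of which 13 carried no outlier flag on either array, out of 27206 such named probes in all.

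RNA came from splenic red pulp macrophages of SIRPα-KO mice and of WT mice, sorted as F4/80-positive, CD11b-low cells, with material from 5 mice mixed for each genotype before extraction. Each genotype is therefore 1 pool on 1 array, no test across samples was possible, and this small number of arrays sets how precise any value can be. Both pools had red blood cells lysed and globin transcripts depleted. The labels used here do not give how the Sirpa gene was altered, nor the strain, age or sex of the mice.

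Spot brightness is given as the scanner's processed signal, an intensity in arbitrary units. For comparison it was divided by the array's own 75th percentile (89.1 on the array labelled SIRPα-KO and 100.2 on the WT array) and put on the log2 scale. Differences are SIRPα-KO minus WT. The value after ± is the scanner software's error of both arrays carried to the difference, which covers spot measurement and neither mice nor pools. A difference of 1, which is 2-fold, was the limit for counting a probe as higher or lower. Summed signals of marker lists weigh bright probes most, and those probes are named beside the sums. For every count of markers the shares over all 15832 measured genes apply: 3.11% at least 2-fold higher, 5.46% lower and 40.4% above 0. Of all 39386 probes, 65.3% on the array labelled SIRPα-KO and 71.5% on the WT array were well above background.

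The cell type label was checked on 17 macrophage genes. Of the 16 with a probe, 13 were well above background on at least 1 array. Over all named genes this held for 15832 of 20642, so the count alone does not set the macrophage genes apart. Adgre1, which encodes the F4/80 antigen of the sort, had a signal of 10406 on the array labelled SIRPα-KO and 6830 on the WT array (0.78 ± 0.20), while its further measured probe differed by -0.47. Spic, the transcription factor of red pulp macrophages, had 53.6 on both. Mrc1, Mertk and Itgad were not well above background on either array, and C1qa and Axl were not on the array labelled SIRPα-KO. Some genes best known from other cells, named after their values were seen, were brighter than Adgre1. Siglech had 113603 on the array labelled SIRPα-KO and 79647 on the WT array, and Elane had 39299 and 45722 in the same order. Signals of different probes are not comparable. In RNA of sorted pools, fewer cells of a type and less RNA per cell cannot be told apart.

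Among the 13 probes, 1 was at least 2-fold higher and 0 were at least 2-fold lower. Over all 19589 measured named probes the shares were 3.11% and 4.88%, and counts of 1 and 0 among 13 probes do not set these genes apart from the whole array. The higher probe belongs to Fyb. The median difference of the 13 probes was -0.09, against -0.07 over all measured named probes. Above 0 lay 4 probes, and 9 lay below it, where 40.7% of all measured named probes lay above 0. Of the 12 probes well above background on both arrays, 3 were higher by more than 2 software errors (Sirpa, Ptpn11 and 1 Fyb probe) and 2 were lower by as much (1 Cd47 probe and Skap2). At 2-fold, 1 of these 12 was higher and 0 were lower, against 2.93% and 4.93% of all named probes with such signals. Differences beyond 2 software errors were common on these arrays: 15.7% of those probes were higher by that margin and 17.8% lower.

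**Figure D1:**
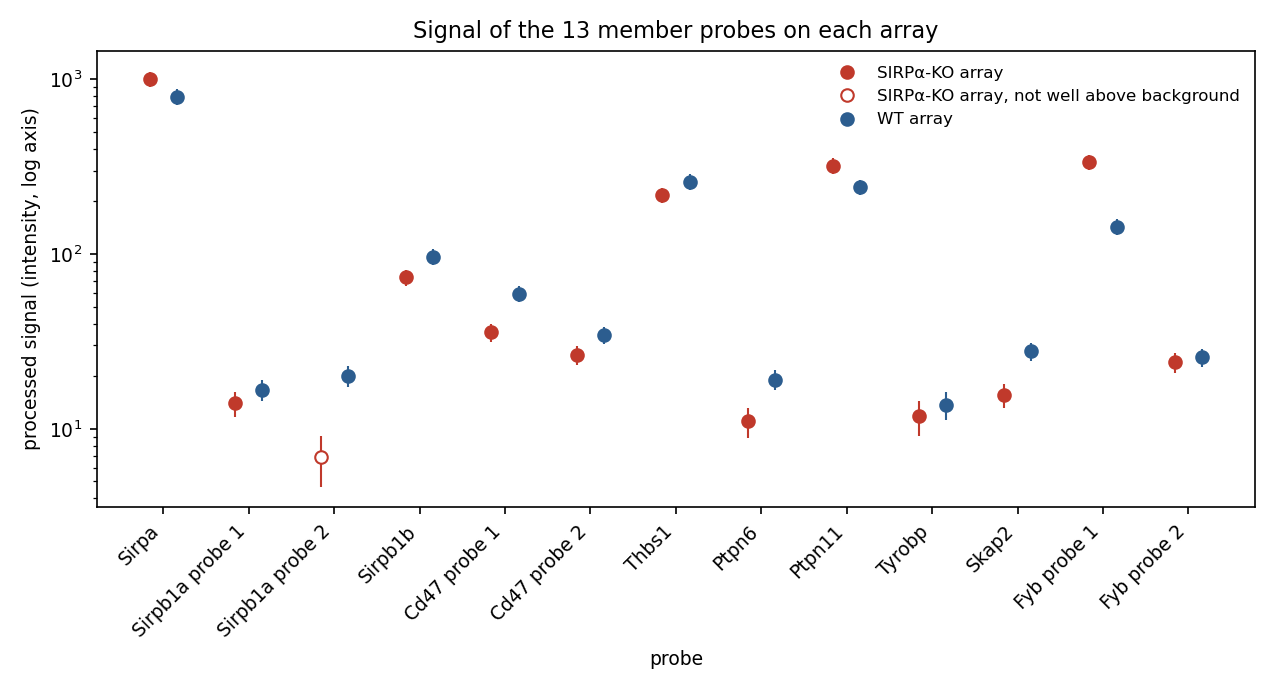
Processed signal (log axis, intensity) of the 13 probes on the array labelled SIRPα-KO (red) and the WT array (blue), with the scanner software's error as bars; the open point is not well above background. Within a probe the pairs lie close together except at Fyb probe 1, with 336.5 on the array labelled SIRPα-KO and 143.4 on the WT array, and at the dim Sirpb1a probe 2. Heights of different probes are not comparable.

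The receptors come first. Sirpa, the gene targeted in these mice, had a signal of 1006 ± 101 on the array labelled SIRPα-KO and 795 ± 79.5 on the WT array. Its difference was 0.51 ± 0.20, or 1.42-fold higher. The signal therefore did not bear out the label of that array. This is the single Sirpa probe, matched through transcript NM_007547. The sources used here do not say where it lies relative to the altered part of Sirpa, and a probe outside a deleted part would check nothing. The difference stayed above 0 in all 7 other settings, between 0.34 and 0.80. The setting with no filter and no bound cannot change a probe that is well above background on both arrays. The 46 other named probes within 5 rows and 5 columns of the Sirpa spot had a median of -0.02. Sirpa had 1 spot on each array, and a fault of a single spot was not tested.

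Sirpa transcripts are also made by conventional dendritic cells. Of 9 markers of those cells, the array labelled SIRPα-KO had 7 well above background and the WT array 6, with 1 at least 2-fold higher and 1 lower. The summed signal of the list, in units of each array's 75th percentile, was 7.67 on the array labelled SIRPα-KO and 13.9 on the WT array. Flt3 alone held 5.78 of that sum on the array labelled SIRPα-KO and 12.1 on the WT array. Flt3 differed by -1.07 at this probe and by -2.25 at a further one. The median difference of the list was 0.21, with 5 of 8 measured markers above 0. Clec4a4 was not well above background on either array. Their part in the Sirpa signal was not tested.

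Sirpb1a and Sirpb1b encode activating SIRPβ receptors of mouse myeloid cells. With Sirpb1c, for which no probe was matched, they stand side by side on chromosome 3 with no other protein-coding gene between them in RefSeq, and they are close copies. The 250 bases before each RefSeq start are shown because they let the likeness be read directly. They are taken from RefSeq (GRCm38.p6, minus strand, written 5′ to 3′), and capitals mark the longest run of 26 bases that all 3 hold. The windows are chr3:15426428-15426677 for Sirpb1a, chr3:15575066-15575315 for Sirpb1b and chr3:15848488-15848737 for Sirpb1c.
Sirpb1a: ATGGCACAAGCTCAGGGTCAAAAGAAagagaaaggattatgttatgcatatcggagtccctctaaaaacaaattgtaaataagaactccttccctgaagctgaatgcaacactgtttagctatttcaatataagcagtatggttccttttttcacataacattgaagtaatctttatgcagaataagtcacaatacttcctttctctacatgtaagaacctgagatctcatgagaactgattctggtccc
Sirpb1b: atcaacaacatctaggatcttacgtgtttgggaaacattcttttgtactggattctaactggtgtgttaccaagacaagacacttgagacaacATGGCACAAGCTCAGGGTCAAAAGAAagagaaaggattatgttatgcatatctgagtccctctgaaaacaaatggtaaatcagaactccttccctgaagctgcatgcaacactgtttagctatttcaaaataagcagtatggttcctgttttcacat
Sirpb1c: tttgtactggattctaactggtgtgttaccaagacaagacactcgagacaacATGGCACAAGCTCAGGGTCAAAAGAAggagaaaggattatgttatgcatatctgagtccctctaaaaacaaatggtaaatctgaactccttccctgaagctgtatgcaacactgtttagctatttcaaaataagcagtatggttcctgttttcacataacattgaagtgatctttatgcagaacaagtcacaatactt
The shared run ends 224 bases before the annotated start of Sirpb1a, 131 before that of Sirpb1b and 172 before that of Sirpb1c, so the annotated starts fall at different places of the same stretch. Sirpb1a and Sirpb1b matched at 95.5% of 157 aligned positions, Sirpb1a and Sirpb1c at 94.95% of 198, and Sirpb1b and Sirpb1c at 97.6% of 209. The array probes' own sequences were not used here, so how far a probe for one of these genes also reads its neighbours was not tested.

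The 2 probes of Sirpb1a, both matched through NM_001002898, differed from each other. The first had a signal of 14.0 ± 2.33 on the array labelled SIRPα-KO and 16.8 ± 2.35 on the WT array, a difference of -0.09 ± 0.31 that is smaller than its error. The second had 6.91 on the array labelled SIRPα-KO, not well above background there, and 20.0 on the WT array. The dim side was set to the lowest signal well above background on its array, 9.09. With this bound Sirpb1a was 1.96-fold lower at the second probe (-0.97 ± 0.51 on the log2 scale), just inside the 2-fold limit and thus not counted. The bound concerns the dim side only and takes no account of spot error. The measured values without this bound differ by -1.37, which would be counted. Over the 7 other settings the second probe stayed below 0, between -1.37 and -0.20, and the first ranged from -0.26 to 0.04, turning above 0 in 2 of them.

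Sirpb1b had 1 usable probe, with 73.7 ± 7.62 on the array labelled SIRPα-KO and 96.5 ± 9.81 on the WT array. The difference of -0.22 ± 0.21 is about as large as its error. A further Sirpb1b probe was left out because its spot on the WT array was flagged as non-uniform. That spot had a processed signal of 9.11 on the array labelled SIRPα-KO, not well above background, and 189 ± 75.8 on the WT array, where the error was 40.1% of the signal. The median pixel of the spot less its local background was 27.5 on the array labelled SIRPα-KO and 36 on the WT array, a far smaller gap than the processed signals show. In the authors' deposited table this probe stands at 3.34 for SIRPα-KO and 7.45 for WT on the log2 scale, or 17.3-fold lower. Of Sirpb1b, the authors' deposited table also holds the usable probe, at -0.23.

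SIRPβ receptors are also made by neutrophils and monocytes. Of 9 neutrophil markers with a probe, the array labelled SIRPα-KO had 6 well above background and the WT array 8; 0 were at least 2-fold higher and 1 was lower. Their summed scaled signal was 719 on the array labelled SIRPα-KO and 650.4 on the WT array, nearly all of it Elane and Csf3r. Of the 8 measured neutrophil markers only Csf3r lay above 0, and their median was -0.06, so the sum and the markers run opposite ways. The sum of the monocyte markers was 174 on the array labelled SIRPα-KO and 240.02 on the WT array, most of it Vcan and Nr4a1, their median was -0.19, and 1 of 5 measured lay above 0. Mpo, of the neutrophil list, and Ccr2, of the monocyte list, were not well above background on either array. The part of these cells in the Sirpb1 signals was not tested.

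**Figure D2:**
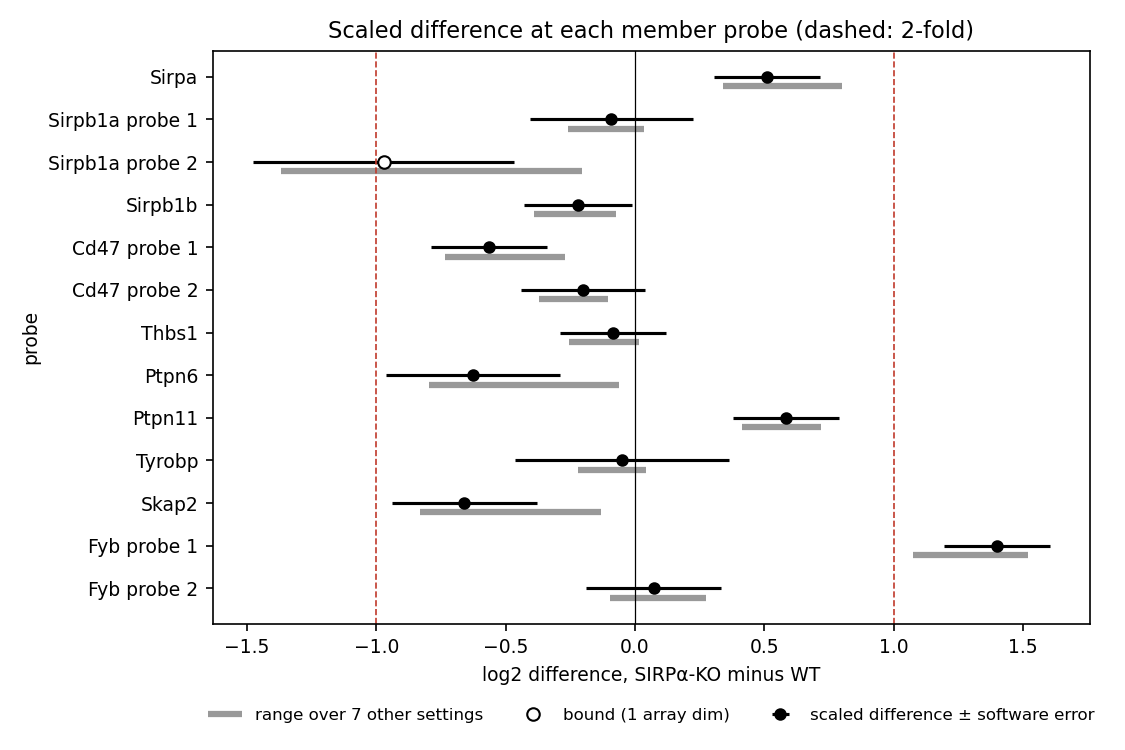
Scaled log2 difference, SIRPα-KO minus WT, at each of the 13 probes (points, with the software error as bars) and the range over 7 other settings (grey); the open point is a bound and dashed lines mark 2-fold. The first Fyb probe, at 1.40, is the single point beyond the lines, and both Cd47 probes lie below 0.

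Among the ligands, Cd47 was lower at both of its probes, each matched through NM_010581. CD47 is a surface protein of nearly all cells, the macrophages included. The brighter probe had 35.7 ± 4.15 on the array labelled SIRPα-KO and 59.4 ± 6.24 on the WT array, a difference of -0.56 ± 0.23 (1.48-fold lower). The dimmer probe had 26.6 ± 3.28 on the array labelled SIRPα-KO and 34.3 ± 3.81 on the WT array, a difference of -0.20 ± 0.24. Both probes stayed below 0 in all 7 other settings, the brighter between -0.73 and -0.27 and the dimmer between -0.37 and -0.11. None of these settings adds a spot. Leaving out the scaling, or taking its percentile over other probes, shifts all probes alike. The setting with no filter and no bound leaves both Cd47 values unchanged. The distance of 0.36 between the probes is an ordinary one, since 45.1% of the 2611 genes that had several probes clear of background on each array gave a smaller distance.

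Thbs1, the gene of thrombospondin 1, which platelets and macrophages release, had 217 ± 21.8 on the array labelled SIRPα-KO and 259 ± 26.0 on the WT array. Its difference of -0.09 ± 0.20 is smaller than its error, and it turned above 0 in 3 of 7 other settings (-0.25 to 0.02). All 10 platelet and megakaryocyte markers were well above background on both arrays, 1 of them at least 2-fold higher and 0 lower. Their summed scaled signal was 162 on the array labelled SIRPα-KO and 149.8 on the WT array. Without Pf4, the brightest, it was 22.1 on the array labelled SIRPα-KO and 27.7 on the WT array, and the median of the list was -0.22 with 4 of 10 above 0. Among erythroid markers 6 of 7 with a probe were above background on each array, with a summed signal of 7.87 on the array labelled SIRPα-KO and 9.23 on the WT array, most of it Slc4a1, and a median of -0.16; Epb42 was not above background. The part of such cells in the Cd47 and Thbs1 signals was not tested.

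The phosphatases went opposite ways, neither by 2-fold. Ptpn11, the gene of SHP-2, which also carries growth factor signals, had 320.4 ± 32.1 on the array labelled SIRPα-KO and 240.3 ± 24.1 on the WT array. The difference was 0.58 ± 0.20, and it kept its sign in all 7 other settings (0.42 to 0.72). Ptpn6, the gene of SHP-1, the main phosphatase of inhibitory receptors in blood cells, was read at a dim probe, with 11.02 ± 2.13 on the array labelled SIRPα-KO and 19.1 ± 2.48 on the WT array. Its difference of -0.63 ± 0.34 was below 2 software errors. It stayed below 0 in all 7 other settings but was -0.06 after normexp on median signals and -0.26 with median pixels less local background. Ptpn6 was matched through NM_001077705 alone and Ptpn11 through NM_011202.

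Of the adaptors, Tyrobp was near equal on both arrays, with 11.8 ± 2.62 on the array labelled SIRPα-KO and 13.7 ± 2.47 on the WT array (-0.05 ± 0.41). DAP12, its product, couples many activating receptors of myeloid cells to the kinase Syk. The signal is close to the lowest that counted as well above background (9.09 for SIRPα-KO and 7.92 for WT), the sign turned in 4 of 7 other settings, and a difference smaller than its error was not detectable at this signal. Skap2, the adaptor that binds both SIRPα complexes and ADAP, had 15.6 ± 2.44 on the array labelled SIRPα-KO and 27.8 ± 3.22 on the WT array. Its difference was -0.66 ± 0.28 (1.58-fold lower) and ranged from -0.83 to -0.13 in the other settings, the smallest after normexp on median signals.

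Fyb gave the largest difference of the 13 probes, and its probes did not give the same answer. ADAP, its product, links immune receptors to the actin skeleton and to integrins and is made by T cells, platelets and myeloid cells. The brighter probe had 336.5 ± 33.7 on the array labelled SIRPα-KO and 143.4 ± 14.4 on the WT array, 2.64-fold higher (1.40 ± 0.20). It lay at percentile 99.0 of the differences of all measured named probes. It was at least 2-fold higher in all 7 other settings (1.08 to 1.52). The setting with no filter and no bound leaves this value unchanged by construction. The dimmer probe, matched through the same transcript NM_011815, had 24.0 ± 3.19 on the array labelled SIRPα-KO and 25.7 ± 3.13 on the WT array (0.07 ± 0.26), and without scaling it lay below 0, at -0.10. The named probes around the 2 Fyb spots had medians of -0.05 and -0.04. Each Fyb probe had 1 spot on each array, and a fault of a single spot was not tested.

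The distance between the Fyb probes was 1.33, larger than in 91.3% of the 2611 genes with more than 1 usable probe, whose median distance was 0.42. This kind of disagreement was common on these arrays. At their brightest probe 71 such genes were at least 2-fold higher; the next probe passed the same limit in 7 of them (9.86%) and lay above 0 in 41 (57.7%). Among all 2611 genes the brightest and the next probe had the same sign in 54.1%. Which Fyb transcripts each probe reads was not tested.

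T cells and platelets also make Fyb. Of 12 T cell markers, the array labelled SIRPα-KO had 12 well above background and the WT array 11, with 0 at least 2-fold higher and 1 lower. Their median difference was -0.00, with 6 of 12 above 0. Their summed scaled signal was 191 on the array labelled SIRPα-KO and 369 on the WT array, of which Cd8b1 alone held 115.4 on the array labelled SIRPα-KO and 278 on the WT array. The part of T cells and platelets in the Fyb signal was not tested.

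**Figure D3:**
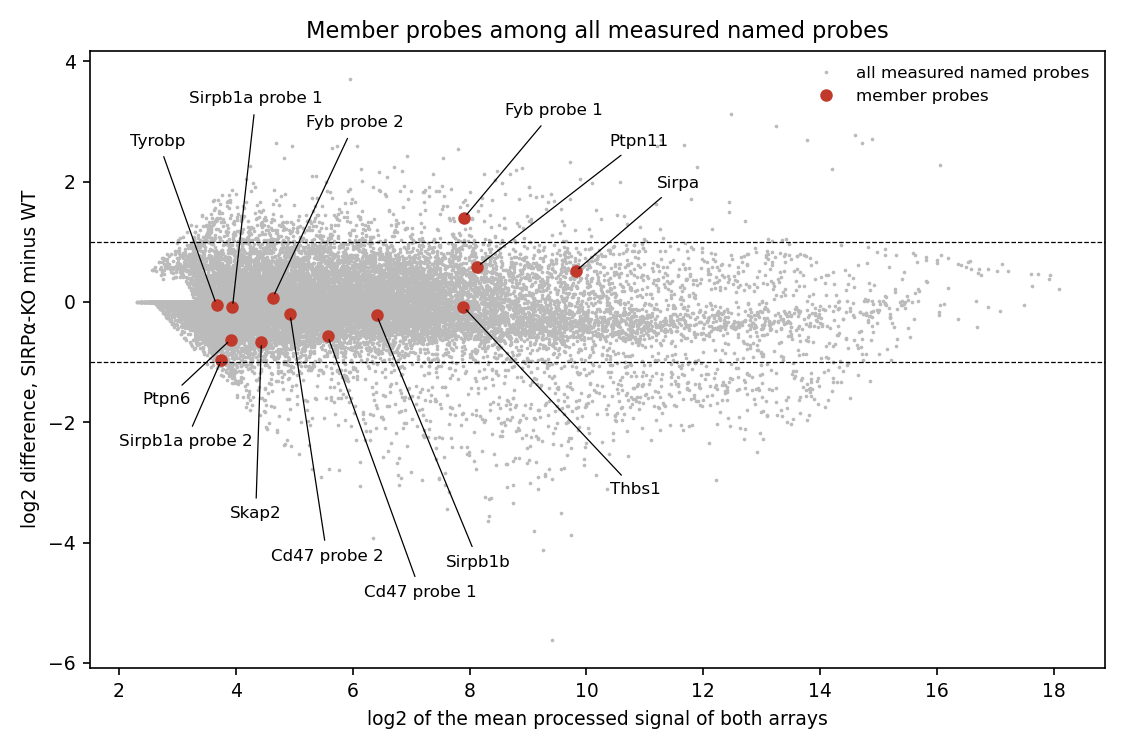
Log2 difference, SIRPα-KO minus WT, against log2 of the mean signal of both arrays for 19589 measured named probes (grey) and the 13 probes of these genes (red); dashed lines mark 2-fold. The 13 probes lie within the cloud, with Fyb probe 1 above the 2-fold line.

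**Figure D4:**
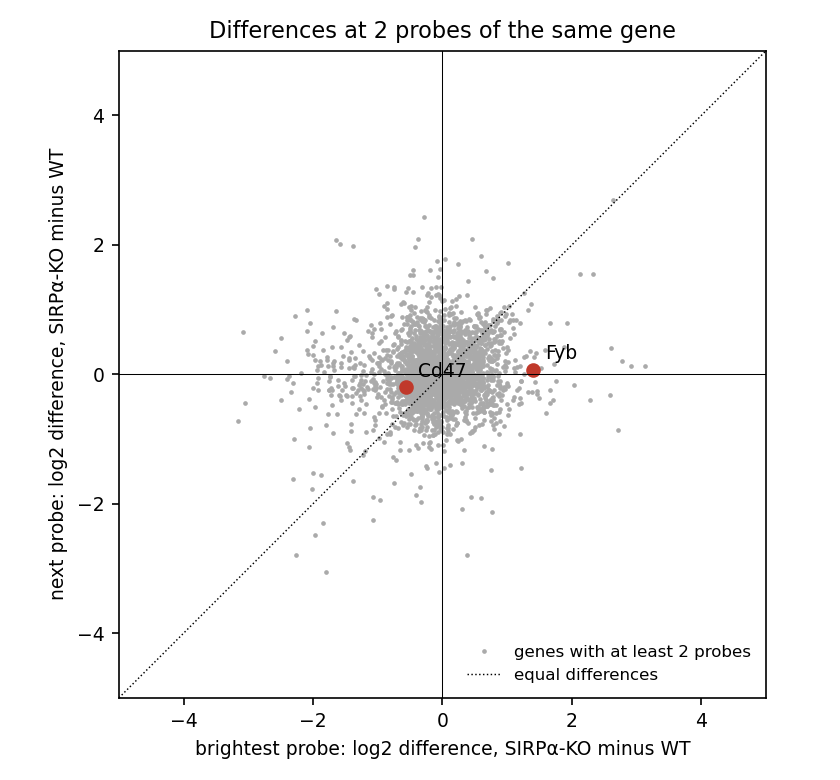
Log2 difference, SIRPα-KO minus WT, at the brightest probe (x axis) and the next probe (y axis) of 2611 genes that had several probes clear of background on each array; the dotted line marks equal differences. Cd47 lies below 0 on both axes, and Fyb lies at 1.40 and 0.07.

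Values of the authors' deposited table, on a log2 scale of their own, gave the same sign as the scanner signals at 11 of the 13 probes. In the authors' deposited table Fyb probe 1 stood at 1.51, Sirpa at 0.75, Ptpn11 at 0.71, Cd47 probe 1 at -0.58, Skap2 at -0.65 and Ptpn6 at -0.56. The signs turned for Thbs1 and Tyrobp, at 0.01 and 0.04 in the authors' deposited table. Sirpb1a probe 2 stood at -1.27 there, with no bound applied.

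The wider pathway was read from 5 lists with 76 genes, of which 63 were measured, each at its brightest probe. Of these, 6 were at least 2-fold higher and 2 lower, against 3.11% and 5.46% of all 15832 measured genes. Without scaling the counts were 3 and 5, and with the 75th percentile taken over probes clear of background on each array they were 6 and 1. The median of the 63 genes was -0.09, against -0.08 over all genes, and 27 lay above 0, where 40.4% of all genes did.

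Kinases, phosphatases and adaptors downstream of SIRPα and the SHP phosphatases were mixed: of 20 measured, 1 passed the 2-fold limit upward and 1 downward, and the median was -0.02. Csk, the kinase that switches off Src-family kinases, was 2.22-fold higher, with 94.9 on the array labelled SIRPα-KO and 48.1 on the WT array (1.15 ± 0.21), and was below 2-fold in 3 of 6 other settings, down to 0.61. Lcp2, the gene of the adaptor SLP-76, a binding partner of ADAP, was 2.11-fold lower at a dim probe, with 11.7 on the array labelled SIRPα-KO and 27.9 on the WT array (-1.08 ± 0.31), and lay between -1.25 and -0.22 in the other settings. Jak2, a kinase reported to associate with SIRPα, differed by -0.47 ± 0.20, and Evl, an actin regulator that binds ADAP, by 0.18 ± 0.20.

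Partners of CD47 gave no gene at least 2-fold apart among 9 measured (median -0.25). Gnai2, the inhibitory G protein subunit that CD47 works with, had 5971 on the array labelled SIRPα-KO and 4959 on the WT array (0.44 ± 0.20). Slc4a1, the band 3 anion channel of the red cell membrane complex that holds CD47, differed by -0.25 ± 0.20 and turned above 0 in 1 of 6 other settings.

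The list of thrombospondins and other ligands also holds receptors of thrombospondin. Of its 9 measured genes 1 was at least 2-fold lower and 0 higher, and 8 lay below 0 (median -0.36). These 8 include Thbs3 (-0.87), Thbs4 (-0.04) and Comp (-0.07), which were dim for SIRPα-KO and clear of background for WT only. The treatment of dim signals keeps such genes at or below 0, so they could not have lain above it. Over all measured genes 40.4% lay above 0 and 5.46% were at least 2-fold lower, with a median of -0.08. After normexp on median signals the median of this list was -0.02, against 0 over all genes. With median pixels less local background it was -0.17, against -0.05. Of 6 measured stromal and endothelial markers, 5 lay below 0 and 2 were at least 2-fold lower (median -0.38). Their summed scaled signal was 51.2 on the array labelled SIRPα-KO and 146 on the WT array, most of it Ccl19. The 2 further probes of Ccl19 differed by -0.01 and 0.04. Cdh5 and Pdgfrb were not well above background on either array. B cell markers had a sum of 12.3 on the array labelled SIRPα-KO and 24.5 on the WT array. That gap is nearly all Cr2, whose further probe differed by 0.31. Of 7 measured B cell markers 1 was at least 2-fold lower and 3 lay above 0, with a median of -0.06. The part of these cells in the values of this list was not tested. The lower gene of the list was Cd36, a scavenger receptor that binds thrombospondin 1, with 147 on the array labelled SIRPα-KO and 528 on the WT array, 3.19-fold lower (-1.67 ± 0.21) and at least 2-fold lower in all 6 other settings. Sftpd, a lung collectin that binds SIRPα, differed by -0.61 ± 0.20 at its brightest probe and by 1.11 at a further one.

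Other receptors with inhibitory ITIM motifs gave mixed values: 1 of 16 was at least 2-fold higher, 0 were lower, 6 lay above 0 and the median was -0.21. Clec4a2, an inhibitory C-type lectin of myeloid cells, was 3.38-fold higher, with 284 on the array labelled SIRPα-KO and 94.4 on the WT array (1.76 ± 0.21), and at least 2-fold higher in all 6 other settings. Pirb, an inhibitory receptor that recruits SHP-1, differed by 0.36 ± 0.20, and Cd22, an inhibitory receptor known best from B cells, by 0.69 ± 0.20.

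Most activating receptors grouped around Tyrobp had a higher scaled signal for SIRPα-KO than for WT. Tyrobp itself was read at a single dim probe, close to the lowest signal that counted. Its difference of -0.05 ± 0.41 changed sign in 4 of 7 other settings, so it is a weak basis for a contrast with the receptors. Of 8 measured receptors 7 lay above 0, 4 were at least 2-fold higher, 0 were lower, and the median was 0.85. Over all measured genes 40.4% lay above 0, 3.11% were at least 2-fold higher and 5.46% lower. The list was chosen with earlier results of these data known, so its counts are a description only. Of its 13 genes with a probe 9 were measured, and the rest were not well above background on either array. In each of 6 other settings 7 of 8 lay above 0, the median ranged from 0.66 to 0.95, and the number at least 2-fold higher from 1 to 4. The list also holds the adaptor gene Hcst, with which 8 of 9 genes lay above 0 at a median of 0.88. Clec5a, a myeloid lectin coupled to DAP12, was 3.60-fold higher, with 92.4 on the array labelled SIRPα-KO and 28.8 on the WT array (1.85 ± 0.22), and at least 2-fold higher in 5 of 6 other settings (0.94 in the remaining one). Trem2, the lipid-sensing receptor coupled to DAP12, was 2.34-fold higher, with 517 on the array labelled SIRPα-KO and 249 on the WT array (1.22 ± 0.20), and at least 2-fold higher in all 6 other settings. Cd300ld, an activating CD300 receptor that is better known to pair with the Fc receptor γ chain than with DAP12, was 2.04-fold higher (1.03 ± 0.20). Its relative Cd300c2, named after its value was seen, was 2.02-fold higher. Both were at least 2-fold higher in 3 of 6 other settings, down to 0.79 for Cd300ld and 0.74 for Cd300c2. Trem1, an amplifier of inflammation, differed by 0.23 ± 0.20, and Siglech, best known from plasmacytoid dendritic cells, by 0.68 ± 0.20 with a further probe at 0.03. No member of this list at least 2-fold apart had a further measured probe, and each had 1 spot on each array. The other settings reuse those spots. Of the 71 genes with several probes that were at least 2-fold higher at their brightest, 7 (9.86%) were so at the next. Pilrb2, named after its values were seen, differed by -0.14 at its brightest probe and by -0.87 at a further one.

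**Figure D5:**
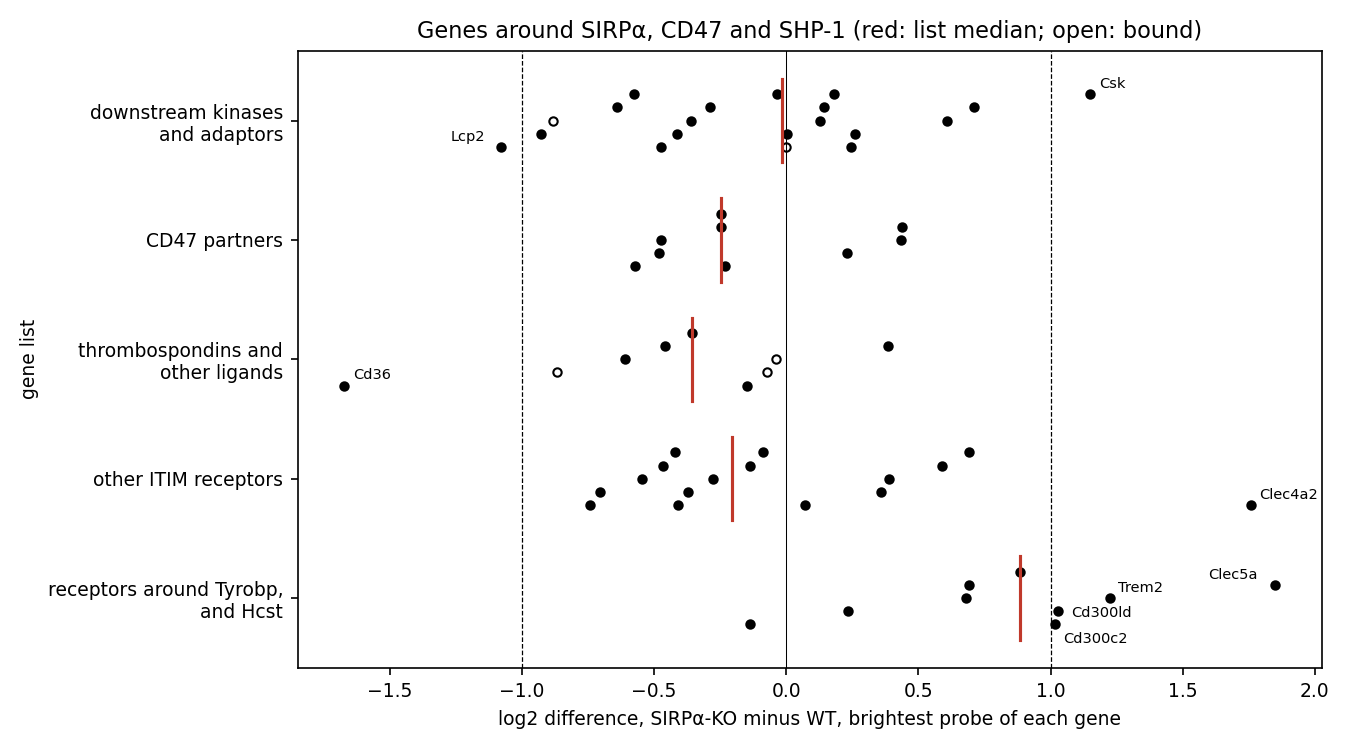
Log2 difference, SIRPα-KO minus WT, of each measured gene of the 5 pathway lists at its brightest probe (open points are bounds, red bars list medians, dashed lines 2-fold). The receptors around Tyrobp, with Hcst, have 8 of 9 genes above 0, and the medians of the other 4 lists lie between -0.36 and -0.02.

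Markers of red pulp macrophages were mixed: 6 of 13 measured markers lay above 0 and 6 below it, and 3 (Cd5l, C1qc and Fcgr1, named after their values were seen) were at least 2-fold higher and 0 lower. Over all measured genes 40.4% lay above 0, 3.11% were at least 2-fold higher and 5.46% lower. The complement genes differed among themselves, with C1qc at 1.11, C1qb at -0.34 and C1qa at -0.64, a bound since C1qa was dim on the array labelled SIRPα-KO. The summed scaled signal of that list was 209.7 on the array labelled SIRPα-KO and 147 on the WT array, of which Adgre1 held 116.7 on the array labelled SIRPα-KO and 68.1 on the WT array. The median difference was 0.00, the value given to a marker whose bound left no difference. Whether the macrophage content of the pools has a part in the receptor values was not tested.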

How the data were processed

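The deposited scanner tables hold linear spot intensity from Agilent Feature Extraction 11.0.1.1 and mouse array design 26655, with build mm9, per the file headers; the processed signal is background-subtracted by that software. The authors' deposited table holds log2 values with a median of 4.56 on each array; the sources used here do not state its normalization. Of 43020 non-control spots, 167 on the array labelled SIRPα-KO and 190 on the WT array were flagged as outliers and left out, as were probes without a kept spot on both arrays. No spot was saturated. A probe was well above background when most of its spots were. Accessions were matched, without versions, to RefSeq of GRCm38.p6 for names; 27206 of 39386 probes matched 1 gene. Where 1 array was dim, the dim side was raised, if lower, to the smallest value well above background on that array. Where this crossed the other side, the difference was 0. Values so treated could therefore not change sides of 0, which limits the counts above and below 0 that hold them. Alternatives used limma 3.58.1 in R 4.3.3 (quantile, normexp). Promoter windows were aligned locally with Biopython 1.88. The counting steps were tested on simulated data. The genes named are the 10 members and, of each pathway list, the 2 brightest measured genes and up to 3 each way at least 2-fold apart. Members and lists were chosen with earlier results of these data known. The planned normexp on mean signals was replaced by median signals, since the tables used here hold no mean signal.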

Additional observations from a re-analysis of the deposited data

How the results depend on the processing

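Normexp on median signals, median pixels less local background, keeping spots with outlier flags, and counting the Tyrobp list without Hcst were chosen after the data were seen; normexp on mean signals was not run. No paired analysis was possible because each genotype has 1 array. The 1 probe at least 2-fold higher became 0 at a 3-fold limit and remained 1 elsewhere. The count at least 2-fold lower, 0, was 1 without scaling and 1 with no filter and no bound (both Sirpb1a probe 2), 1 with flagged spots kept (the non-uniform Sirpb1b spot) and 3 at 1.5-fold. The 63 pathway genes, with 6 higher and 2 lower, gave 3 and 5 without scaling, 2 and 1 after normexp, 3 and 1 with median pixels, 13 and 9 at 1.5-fold and 2 and 1 at 3-fold; with the 75th percentile taken over probes clear of background on each array the lower count was 1. Fold limits and the filter change counts by their construction, and leaving out the scaling moved the median of all measured named probes to -0.24, against -0.07. Leaving out the scaling, or taking its percentile over other probes, shifts all probes alike and can turn only small differences. Over all named probes 38.9% of those at least 2-fold apart were higher, against 22.5% without scaling, 50.6% after quantile normalization and 16.8% after normexp. Fyb probe 1 kept its sign in all 7 settings, as did 8 other probes; Sirpb1a probe 1, Thbs1, Tyrobp and Fyb probe 2 turned in 2, 3, 4 and 1 of 7 settings. After normexp 5 of 13 probe differences moved by more than their error. Dim probes limit Tyrobp, Ptpn6, Skap2 and both Sirpb1a probes.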

Other observations

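Some further genes of the pathway lists, all within the 2-fold limit, are named here after their values were seen. Hcst, which encodes DAP10, an adaptor like DAP12, had a signal of 413 on the array labelled SIRPα-KO and 252 on the WT array, a difference of 0.88 ± 0.20. Of the Src-family kinases, which phosphorylate receptor tails, Fgr had 224 on the array labelled SIRPα-KO and 479 on the WT array (-0.93 ± 0.20). Lyn had 6.53 on the array labelled SIRPα-KO, not well above background, and 18.8 on the WT array. With the dim side set to its bound Lyn was 1.84-fold lower (-0.88 ± 0.50). Syk, the kinase that DAP12 recruits, differed by 0.00 ± 0.20. Inpp5d, the gene of the lipid phosphatase SHIP-1, had 79.0 on the array labelled SIRPα-KO and 58.2 on the WT array (0.61 ± 0.21).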
